A study of Mus musculus with 10 samples.

Results

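The genes described here encode the machinery that folds, modifies and exports secreted proteins, with weight on the enzymes and chaperones that collagen needs on its way out of the cell. The list named 45 mouse genes, and a probe set was taken for a gene only where the annotation of the array platform gave that gene alone. Of the 45, 38 had at least 1 probe set, 56 probe sets in all, out of 8251 genes and 12488 probe sets on the array. Plod1, Plod2, Fkbp10, Sec61g, Sdf2l1, Tmed2 and Tmed10 had no such probe set and are not analysed here. By textbook role, 6 of the 38 are collagen-modifying enzymes and collagen chaperones, 12 are general folding proteins of the endoplasmic reticulum (ER), 11 belong to signal recognition, the translocon and N-glycosylation, 6 to vesicle transport and 3 to the regulation of ER stress.

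RNA came from the gastrocnemius, the large calf muscle, of males aged 16 weeks. There were 5 arrays from normal mice (control), whose strain the labels do not give, and 5 from mdx mice, which carry a mutation in the gene for dystrophin, the protein that anchors the muscle fibre's cytoskeleton to its membrane. The mutation is present in every cell of these mice, so that no cell type of the muscle is spared it. The series title describes the mdx muscle as regenerated, and the question here is how transcripts of the secretory pathway differ in it. Whether each array stands for its own animal is not given in the labels. The p-values therefore reflect the scatter among the deposited arrays, part of which may be technical.

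Secreted and membrane proteins enter the ER through the translocon, fold there with the help of chaperones and disulfide isomerases, receive N-linked sugars and leave in coated vesicles. Collagen chains need more than this. Their prolines and lysines are hydroxylated, cyclophilin B and related isomerases free their proline bonds, and the chaperone Hsp47 holds the finished triple helix until it reaches the Golgi. In muscle most collagen is made by fibroblasts between the fibres, and a fibre's own ER is specialised for calcium storage as the sarcoplasmic reticulum.

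Values are deposited probe set intensities on a linear scale, in array units. Changes are differences, mdx minus control, of log2(intensity + 156.8), where 156.8 is the noise level estimated from the values below 0, and every fold below is on that scale, which understates the change of dim genes. A change was called at an adjusted p below 0.05 (limma, Benjamini-Hochberg over 7612 tested probe sets), and a gene with several probe sets is represented by the one that was brightest on average. Over all 5767 genes tested, 15.9% were called higher and 18.4% lower in mdx, and the median log2 change was -0.05. The dystrophin transcript Dmd went from 797 ± 147 in control to 188 ± 33.7 in mdx (SD, n = 5; limma adjusted p = 6.17e-06). Markers of muscle fibres such as Acta1 and Ckm were bright on all arrays, while the probe set of Myh2 was below the noise level on all 10.

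The scaling of the arrays touches every result below. The arrays had been brought to nearly the same mean before deposit, so a level is relative to the other transcripts of its array. When the arrays were scaled instead to 9 probe sets of the bacterial hybridization controls, the median change of all genes moved from -0.05 to 0.45 and calls went from 47.3% higher to 96.6% higher, so that rises and falls below are relative to the bulk of transcripts. Changes of single genes given below under that scaling are to be read against its median of 0.45. As a sign of RNA quality, actin's 3' signal divided by its 5' signal averaged 1.13 ± 0.0384 on control arrays and 1.02 ± 0.0482 on mdx arrays (SD, n = 5; exact permutation p = 0.0159, two-sided). The same ratio for Gapdh averaged 0.735 ± 0.0595 and 0.732 ± 0.0413 (exact permutation p = 0.921). The part of the actin difference in the results was not tested.

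Of the 38 genes, 35 were bright enough to be tested, 15 rose, 1 fell and 19 did not pass. The share that rose was 42.9%, beside 15.9% of all genes, and the share that fell was 2.86%, beside 18.4%. Their median log2 change was 0.29. The arrays of the groups did not overlap for 11 of the 35 in the upward direction, where 12.7% of all genes were so separated, and for 1 in the downward direction, where 13.6% were. Calr, the lectin chaperone calreticulin, Hyou1, an ER relative of Hsp70, and Ssr4, a subunit of the complex beside the translocon, were below the noise level on all 10 arrays and have no measured change. Against the median of all genes, the general folding genes lay 0.67 higher, the collagen-modifying genes 0.62, the translocon and N-glycosylation genes 0.25 and the vesicle genes 0.21, and the 3 stress regulators lay 0.20 lower. Scaled to the hybridization controls, these distances were 0.73, 0.67, 0.25, 0.22 and -0.07.

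**Figure D1:**
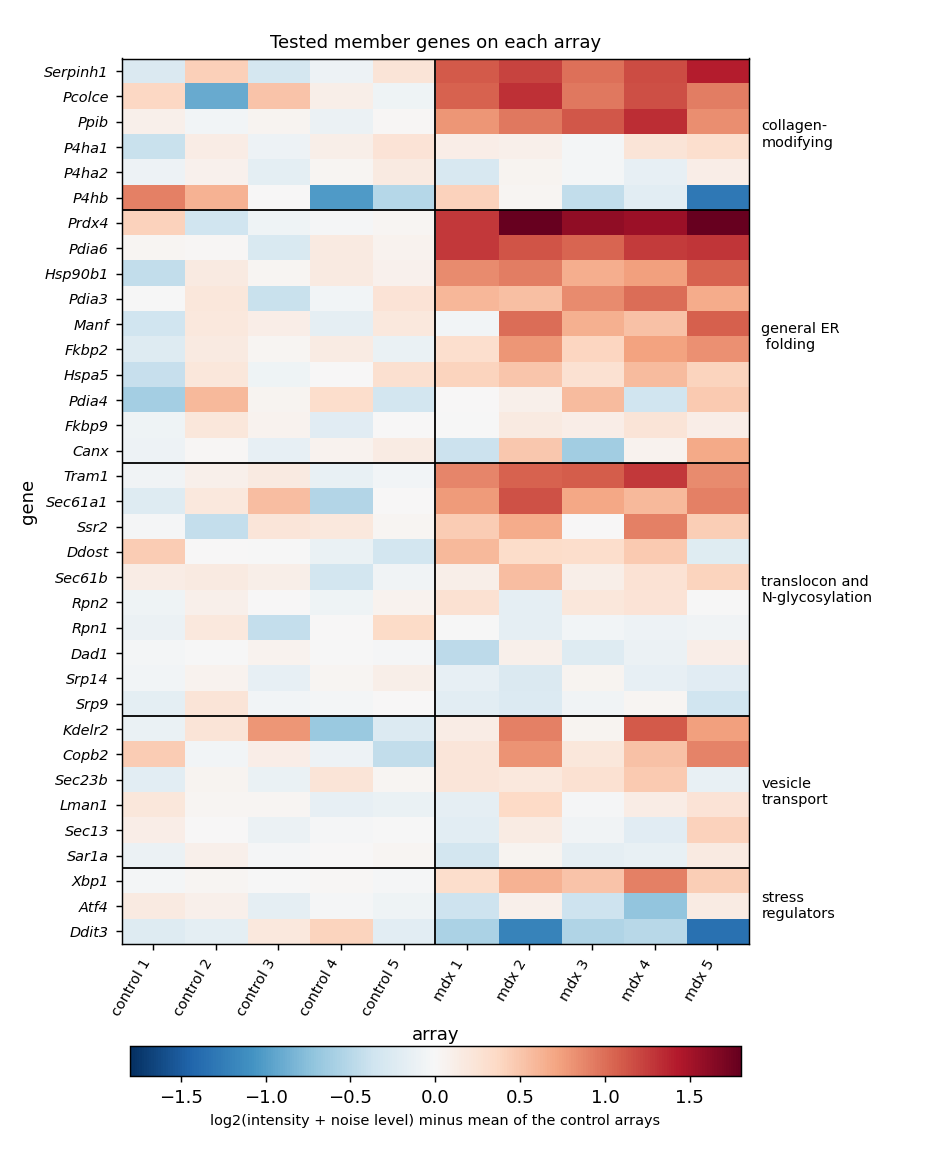
Each row is a tested gene and each column an array, coloured by log2(intensity + noise level) minus the gene's mean over the 5 control arrays, with genes grouped by role and ordered by change within a role. Red blocks in the 5 mdx columns mark the genes that rose together on all mdx arrays, such as Serpinh1, Pdia6, Prdx4 and Tram1, while rows such as P4ha2, Srp14 and Sar1a stay pale.

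Among the collagen-modifying genes, the chaperone, the prolyl isomerase and the procollagen protease enhancer rose about 2-fold, and the prolyl hydroxylase subunits did not pass the test. Of 6 tested, 3 rose and 0 fell, with a median log2 change of 0.57. The share that rose was 50.0%, beside 15.9% of all genes, where 18.4% fell.

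Serpinh1 encodes Hsp47, the chaperone that binds the collagen triple helix. Its intensities were 1939, 3219, 1868, 2209 and 2786 on the control arrays and 5235, 5657, 4854, 5517 and 6550 on the mdx arrays. The lowest mdx array stood well above the highest control array, and the transcript rose by 1.18 on the log2 scale (SE 0.14, limma adjusted p = 4.46e-05), or 2.27-fold. Ppib, the gene of cyclophilin B, an isomerase of proline bonds, gave 972.1, 862.8, 937.4, 821.3 and 915.8 in control and 1672, 1892, 2133, 2498 and 1731 in mdx. The control arrays lay close together and every mdx array was higher, with a 2.01-fold rise (adjusted p = 2.26e-05). Pcolce encodes a secreted protein that speeds the removal of the C-terminal propeptide from procollagen. It gave 1912, 692.4, 2117, 1558 and 1356 in control and 3166, 3818, 2918, 3394 and 2872 in mdx. Control replicate 2 was the lowest, the groups did not overlap, and the log2 change was 1.08 (SE 0.22, adjusted p = 0.00239).

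The catalytic subunits of prolyl 4-hydroxylase, which makes the hydroxyprolines that keep the helix stable at body temperature, did not pass. P4ha1 averaged 682.5 ± 141 against 760.5 ± 82.0 (SD, n = 5), a difference of 0.14 (SE 0.13, limma adjusted p = 0.462). P4ha2 was at 1175 ± 123 and 1120 ± 138, a change of -0.06 (SE 0.11, adjusted p = 0.694), and its dimmer probe set gave -0.27 (adjusted p = 0.201). Scaled to the hybridization controls, P4ha1 and P4ha2 rose by 0.66 and 0.50. They lay 0.21 and 0.05 above the median of all genes there. P4hb encodes protein disulfide isomerase, which is also the partner subunit of that enzyme. Its brightest probe set scattered widely, with 3910, 3211, 2019, 911.9 and 1374 in control and 2753, 2068, 1451, 1743 and 732.7 in mdx. The groups overlapped throughout, with a log2 change of -0.29 (SE 0.38, adjusted p = 0.593). The other probe set, at 330.5 ± 71.9 and 345.8 ± 90.2, gave 0.04 (adjusted p = 0.881).

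The collagens that pass through this machinery, and other genes that act on them, give the setting. Of 15 tested collagen chains 13 rose (86.7%, beside 15.9% of all genes) and 1 fell (6.67%, beside 18.4%), with a median of 1.47. The 3 with the smallest p were Col5a2 (2.24), Col6a3 (2.02) and Col6a2 (1.56). Col12a1 was the chain that fell (-0.62, adjusted p = 0.0273), although its other probe set, at -0.06, did not pass. Among chains that rose, Col1a1 (0.39), Col1a2 (-0.06) and Col18a1 (-0.05) also had a further probe set that did not pass. Further probe sets of Col3a1, Col5a1 and Col6a1 rose too, as did another of Col18a1 (0.96). Of 11 other collagen-processing genes 8 rose (72.7%) and 1 fell (9.09%), with a median of 0.79. Crtap, a component of the prolyl 3-hydroxylase complex, rose by 1.08. Lox and Loxl1, which cross-link collagen and elastin outside the cell, rose by 1.16 and 0.93. Plod3, a lysyl hydroxylase, rose by 0.52 with its brightest probe set and stood at -0.19 (adjusted p = 0.328) with the other. P3h3 also rose (0.93), but its control mean of 57.8 lay below the noise level. The gene that fell was Mia3, whose product TANGO1 loads collagen into vesicles, from 2150 ± 341 to 1460 ± 23.7 (SD, n = 5; -0.50, limma adjusted p = 0.00265). Under scaling to the hybridization controls Mia3 stood at 0.09, where the median of all genes was 0.45.

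**Figure D2:**
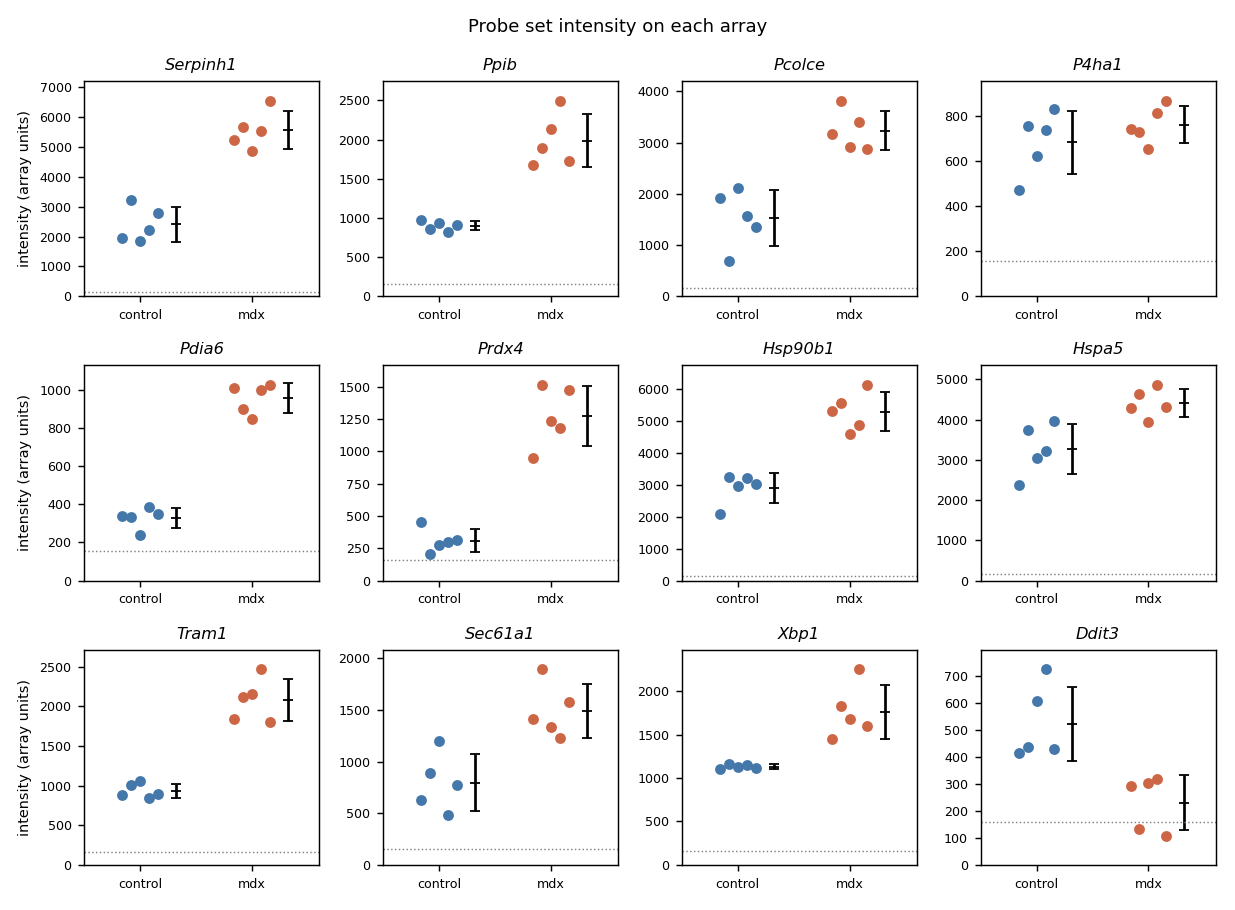
Intensity in array units for 12 genes, with a point for each of the 5 control and 5 mdx arrays, the mean ± SD beside the points and the noise level of 156.8 as a dotted line; each panel has its own axis starting at 0. In 10 of the 12 panels the groups do not overlap, and the exceptions are P4ha1 and Hspa5. The 12 genes are a selection from the 35 tested. Over all 35 the groups did not overlap for 11 upward and 1 downward, beside 12.7% and 13.6% of all genes.

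The general folding genes were the group with the largest share of rises. Of 10 tested, 7 rose and 0 fell, with a median log2 change of 0.62, and all 10 changes were above 0. The share that rose was 70.0%, beside 15.9% of all genes, where 18.4% fell.

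Prdx4 encodes the ER peroxiredoxin, which uses peroxide to help form disulfide bonds. It gave 456.8, 203.2, 278.6, 296.4 and 317.1 in control and 951.3, 1516, 1239, 1183 and 1478 in mdx. It had the largest change of the 35 genes, 1.62 (SE 0.16, limma adjusted p = 9.22e-06) or 3.07-fold, with no overlap. Pdia6, a disulfide isomerase, gave 336.6, 335.1, 241.7, 385.1 and 347.8 in control and 1009, 902.1, 846.1, 1002 and 1027 in mdx. Both groups were tight and far apart, with a change of 1.20 (SE 0.11, adjusted p = 7.23e-06). A second probe set of Pdia6 was also higher on average, at 420.5 ± 211 and 753.7 ± 197, but missed the threshold (0.72, adjusted p = 0.0546). Its arrays read 339.6, 709.4, 429.4, 131.6 and 492.3 in control and 654.5, 934.8, 796.7, 917.4 and 465.1 in mdx, so the groups overlapped, and another probe set was too dim to test.

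Hsp90b1 encodes Grp94, the Hsp90 of the ER. Its intensities were 2076, 3244, 2953, 3214 and 3035 in control and 5327, 5571, 4602, 4868 and 6142 in mdx, and the change was 0.84 (SE 0.12, limma adjusted p = 0.000207). The groups did not overlap, and control replicate 1 was lower than the other control arrays. Pdia3, the isomerase that works with calnexin and calreticulin on glycoproteins, gave 724.7, 865.1, 515.9, 696.8 and 898.4 in control and 1179, 1137, 1439, 1619 and 1246 in mdx. The groups did not overlap, and the change was 0.73 (SE 0.14, adjusted p = 0.00154). Fkbp2, a prolyl isomerase, rose by 0.61 (SE 0.13, adjusted p = 0.00314), also without overlap.

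Hspa5, the gene of BiP, the ER's main Hsp70 and the sensor partner of the unfolded protein response, moved less. It averaged 3275 ± 627 in control against 4410 ± 350 in mdx (SD, n = 5), a rise of 0.43 (SE 0.12, limma adjusted p = 0.0173), and the highest control array (3975) reached above the lowest mdx array (3955). Manf, a small secreted protein induced by ER stress, rose by 0.64 (SE 0.20, adjusted p = 0.0273), with mdx replicate 1 at 761.6 inside the control range of 587.9 to 931.7. That call was lost without control replicate 1 or 4 or mdx replicate 2, 3 or 5 (adjusted p of 0.0503 to 0.0679) and with no filter (0.0754). Fkbp9 (0.12), Pdia4 (0.16) and Canx (0.05), the last being the membrane chaperone calnexin, did not pass. Canx spread from 546.1 to 1581 in mdx and from 823.6 to 1043 in control.

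Of 23 other folding genes 8 rose (34.8%, beside 15.9% of all genes) and 0 fell (beside 18.4%), with a median of 0.32. The 3 with the smallest p were Erp29, a chaperone of the disulfide isomerase family (1.24), the calcium-binding Calu (0.62) and Rcn1 (0.85). The brightest probe set of Erp29 went from 706 ± 107 to 1880 ± 257 (SD, n = 5), while another stood at -0.48 (limma adjusted p = 0.186).

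Several of these folding genes carry the ER stress element in their promoters, the letters CCAAT, then 9 bases of any kind, then CCACG, that ATF6 and XBP1 are known to bind together with NF-Y, and the windows are shown because they let the change of each gene be set beside its sequence. The 250 bases before the annotated start were read from RefSeq promoter sequences of GRCm38.p6 and both strands were searched. Of 38 genes 31 had a window, and 5 of them held the element, Hspa5, Hsp90b1, Pdia6, Canx and Calr, all of the general folding group. Of 32851 windows in the table, 37 held it (0.113%). The sequences of Hspa5 at chr2:34771840-34772089 (plus strand), Hsp90b1 at chr10:86705445-86705694 (minus strand), Pdia6 at chr12:17266339-17266588 (plus strand) and Canx at chr11:50325674-50325923 (minus strand) run 5′ to 3′ in the direction of the gene, with the fixed letters of the element in capitals.
Hspa5: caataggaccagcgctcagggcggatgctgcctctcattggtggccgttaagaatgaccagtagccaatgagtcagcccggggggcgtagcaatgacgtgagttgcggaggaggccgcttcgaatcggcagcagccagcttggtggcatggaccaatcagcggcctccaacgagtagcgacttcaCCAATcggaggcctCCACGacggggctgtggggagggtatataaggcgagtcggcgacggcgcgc
Hsp90b1: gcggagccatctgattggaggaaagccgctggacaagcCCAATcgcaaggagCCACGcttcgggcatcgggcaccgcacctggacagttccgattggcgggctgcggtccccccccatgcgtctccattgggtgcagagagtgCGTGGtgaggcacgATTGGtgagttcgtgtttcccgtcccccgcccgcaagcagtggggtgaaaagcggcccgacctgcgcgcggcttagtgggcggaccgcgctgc
Pdia6: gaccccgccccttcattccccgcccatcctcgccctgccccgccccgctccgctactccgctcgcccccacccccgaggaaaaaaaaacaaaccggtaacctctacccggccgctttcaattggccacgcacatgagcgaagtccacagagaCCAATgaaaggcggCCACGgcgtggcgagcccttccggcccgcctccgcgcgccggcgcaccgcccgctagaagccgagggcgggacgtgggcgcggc
Canx: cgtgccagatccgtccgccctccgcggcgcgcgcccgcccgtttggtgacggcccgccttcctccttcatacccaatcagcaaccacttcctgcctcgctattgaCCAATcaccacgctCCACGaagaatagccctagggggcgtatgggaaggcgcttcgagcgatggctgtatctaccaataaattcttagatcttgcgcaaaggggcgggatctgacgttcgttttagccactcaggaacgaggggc
Counted back from the start, the element covers bases 65 to 47 in Hspa5, 98 to 80 in Pdia6 and 145 to 127 in Canx, and Hsp90b1 holds it at 212 to 194 and, on the opposite strand, at 107 to 89. The log2 changes of these genes were 0.43 for Hspa5, 0.84 for Hsp90b1, 1.20 for Pdia6 and 0.05 for Canx, so that carriers of the element both rose and did not pass the test. Of the 11 genes that rose and had a window 3 held it, and of the 20 others 2 did, Canx and Calr. Those others include untested genes, and Calr is one of them, so its change is not known. The element contains a CCAAT box, which alone was found in 18 of the 31 genes and in 33.8% of all windows. A shorter form, ATTGG and CCACG with 1 base between them, was in 0 of the 31 genes and 0.0304% of windows, TGACGTGG, the core of another XBP1 site, in 0 and 0.563%, and TGATGNAAN, a form of the amino acid response element that ATF4 binds, in 0 and 3.44%. A match is a description of letters, and its absence says nothing beyond this window.

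At the entrance to the ER, the pore subunit gene Sec61a1 and the genes Tram1 and Ssr2 of proteins beside the channel rose, while Sec61b and the listed genes of the signal recognition particle and of the sugar-transferring enzyme did not pass. Of 10 tested, 3 rose and 0 fell, with a median of 0.20. The share that rose, 30.0%, stands beside 15.9% of all genes, where 18.4% fell. Of these 3 calls, that of Ssr2 was lost under several alternatives, given below.

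Tram1, a membrane protein beside the channel, gave 884.5, 1002, 1057, 837 and 891.4 in control and 1845, 2120, 2153, 2468 and 1801 in mdx. The groups did not overlap, with a change of 1.03 (SE 0.10, limma adjusted p = 1.05e-05), and its second probe set rose by 0.47 (adjusted p = 0.0169). Sec61a1 encodes the pore-forming subunit of the channel. It gave 632.5, 891.3, 1202, 483.1 and 773.5 in control and 1415, 1895, 1338, 1225 and 1576 in mdx. Control replicate 3, at 1202, came just below the lowest mdx array, at 1225, and the change was 0.82 (SE 0.19, adjusted p = 0.00439), with 0.43 (adjusted p = 0.0116) on the second probe set.

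Ssr2, a subunit of the translocon-associated complex, gave 764.9, 535.3, 925.2, 902.8 and 800.3 in control and 1127, 1319, 779.6, 1581 and 1112 in mdx. Mdx replicate 3 lay inside the control range, and the change was 0.50 (SE 0.17, limma adjusted p = 0.0415). This call was lost without control replicate 1, 2 or 5 or mdx replicate 1, 2, 4 or 5 (adjusted p of 0.0601 to 0.0987), with quantile normalization (0.0599), with median centring (0.0635) and with no filter (0.0919). Sec61b, the small beta subunit of the channel, was at 0.29 (SE 0.12, adjusted p = 0.0904) and passed after quantile normalization (0.31, adjusted p = 0.0494).

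The signal recognition particle subunits Srp9 and Srp14, which form the part that pauses translation, stood at -0.17 and -0.14 (limma adjusted p = 0.232 and 0.185). In the oligosaccharyl transferase, which attaches N-linked sugars, Ddost stood at 0.30, Rpn2 at 0.11, Rpn1 at -0.08 and Dad1 at -0.12, and 0 of these 4 passed. Rpn1 had probe sets of opposite sign. The brighter gave 1723, 2148, 1352, 1874 and 2412 in control and 1857, 1655, 1795, 1739 and 1788 in mdx, and the dimmer gave 220.4, 522.2, 530.2, 435.7 and 565.9 and 579.1, 500.2, 750.6, 698.8 and 489.8 (0.34, adjusted p = 0.192). Both pairs of ranges overlapped. Scaled to the hybridization controls, Srp9, Srp14, Rpn1 and Dad1 passed as higher, at 0.43, 0.48, 0.51 and 0.50. Against the median of all genes there, they lay at -0.02, 0.03, 0.06 and 0.05.

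Of 17 other genes of targeting and glycosylation 3 rose and 4 fell, with a median of -0.18. These shares, 17.6% and 23.5%, lay near the 15.9% and 18.4% of all genes. The 3 that rose were Ostc, a subunit of the transferase (0.76), and Sec11a and Spcs2 of the signal peptidase (0.56 and 1.32). The 4 that fell were Srp19 (-0.77), Sec61a2 (-0.47), Srpr (-0.27) and Srp68 (-0.27), and scaled to the hybridization controls 0 of them passed, with Sec61a2, Srpr and Srp68 above 0. All 4 lay below the median of all genes under that scaling, 0.45. Srpr and Srp68 also missed the threshold after quantile normalization (-0.06 and -0.18), and the other probe set of Srpr stood at -0.01.

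**Figure D3:**
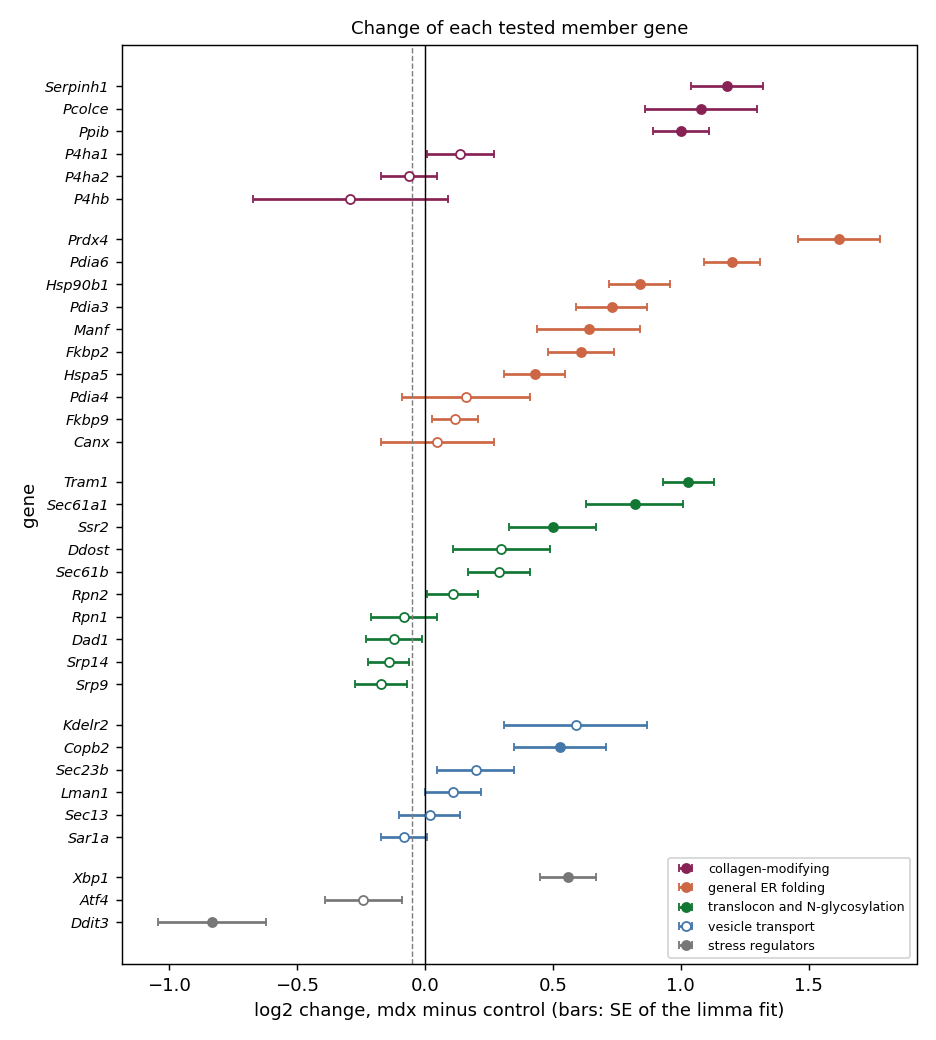
Log2 change, mdx minus control, of the 35 tested genes with the SE of the limma fit; filled points passed an adjusted p below 0.05 and open points did not, and the dashed line is the median of all tested genes at -0.05. The folding genes all lie to the right of 0, the collagen-modifying genes split into 3 near 1 and 3 near or below 0, and most vesicle genes lie close to the dashed line.

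Of the vesicle transport genes 1 of 6 tested rose and 0 fell, with a median of 0.16. The share that rose, 16.7%, lay near the 15.9% of all genes. Copb2, a subunit of the COPI coat that returns vesicles to the ER, gave 2569, 1754, 2003, 1698 and 1307 in control and 2150, 3320, 2122, 2709 and 3523 in mdx. Control replicate 1 lay inside the mdx range, and the change was 0.53 (SE 0.18, limma adjusted p = 0.0373). The call was lost without control replicate 2, 4 or 5 or mdx replicate 2, 4 or 5 (adjusted p of 0.0649 to 0.0892), with no filter (0.0990) and with no variance trend (0.0513). Its dimmer probe set kept the groups apart, at 190.4 to 383.0 and 541.3 to 770.0, and rose by 0.89 (adjusted p = 0.00059).

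Kdelr2, the receptor that brings escaped chaperones back to the ER, had the largest change of the 6 but a wide spread. It gave 447.6, 616.3, 988.4, 256.9 and 400.5 in control and 568.2, 1079, 526.8, 1254 and 937.9 in mdx (0.59, SE 0.28, limma adjusted p = 0.128). Control replicate 3 was the highest control array, and without it the change was 0.79 (adjusted p = 0.0324). The COPII coat genes Sec13 (0.02) and Sec23b (0.20), the GTPase Sar1a that starts that coat (-0.08) and the cargo receptor Lman1 (0.11) did not pass. Sar1a was at 0.54 and passed when scaled to the hybridization controls, 0.09 above the median of all genes there. Of 31 other vesicle genes 7 rose and 5 fell, with a median of 0.04. These shares, 22.6% and 16.1%, stand beside 15.9% and 18.4% of all genes. With median centring 5 rose and 6 fell, with quantile normalization 8 and 5, and with equal trimmed means 9 and 5. Sec22b stood at 0.03 with its brightest probe set, while another rose by 0.68 (limma adjusted p = 0.00127). The 3 with the smallest p were Kdelr3, another receptor of the same kind (1.24), the GTPase Arf4 (1.02) and Tmed3, a cargo adaptor (1.13). The 5 that fell were Gosr1 (-1.36), Sar1b (-0.76), Rab2a (-0.55), Tmed4 (-0.40) and Sec23a (-0.39). Gosr1 averaged 370 ± 317 in control and -36.8 ± 205 in mdx (SD, n = 5). Its mdx mean lay below the noise level and its control arrays scattered widely, so the size of its fall is poorly determined. Scaled to the hybridization controls, Gosr1 still passed (-1.11, limma adjusted p = 0.0481), while Sar1b (-0.13), Rab2a (0.07), Tmed4 (0.20) and Sec23a (0.22) did not. All 5 lay below the median of all genes under that scaling, 0.45.

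Of the 3 stress regulators Xbp1 rose, Ddit3 fell and Atf4 did not pass. Xbp1 encodes a transcription factor of the unfolded protein response, activated when its mRNA is cut and rejoined by the sensor IRE1, a step that these probe sets were not shown to resolve. It gave 1099, 1160, 1132, 1154 and 1117 in control and 1444, 1835, 1676, 2254 and 1596 in mdx. The control arrays were almost equal and all mdx arrays were higher, with a change of 0.56 (SE 0.11, limma adjusted p = 0.00158). Ddit3 encodes CHOP, the factor that is induced by prolonged ER stress. It gave 413.0, 436.7, 606.3, 724.1 and 427.4 in control and 292.7, 133.2, 301.9, 316.4 and 107.3 in mdx. The groups did not overlap and 2 mdx arrays lay below the noise level, with a fall of 0.83 on the log2 scale (SE 0.21, adjusted p = 0.00813). When scaled to the hybridization controls Ddit3 no longer passed (-0.40, adjusted p = 0.117), although it lay 0.85 below the median of all genes there. Atf4, the factor upstream of Ddit3 in the same response, was at 8498 ± 800 and 7306 ± 1840 (SD, n = 5; -0.24, adjusted p = 0.242).

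Of 15 other genes of the stress response 3 rose and 3 fell, with a median of 0.04. These shares, 20% in each direction, lay near the 15.9% and 18.4% of all genes. Serp1, which protects membrane proteins under ER stress, rose by 1.04, and Edem2 and Derl2, which act in the disposal of misfolded proteins, by 0.54 and 0.38. Derl2 missed the threshold after quantile normalization (0.29, limma adjusted p = 0.108) and median centring (0.32, adjusted p = 0.0694). Wfs1, Herpud1 and the stress-induced factor Atf3 were the 3 that fell, by 0.57, 0.42 and 0.74 on the log2 scale, and under scaling to the hybridization controls they stood at 0.03, 0.18 and -0.16 and did not pass. All 3 lay below the median of all genes under that scaling, 0.45.

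**Figure D4:**
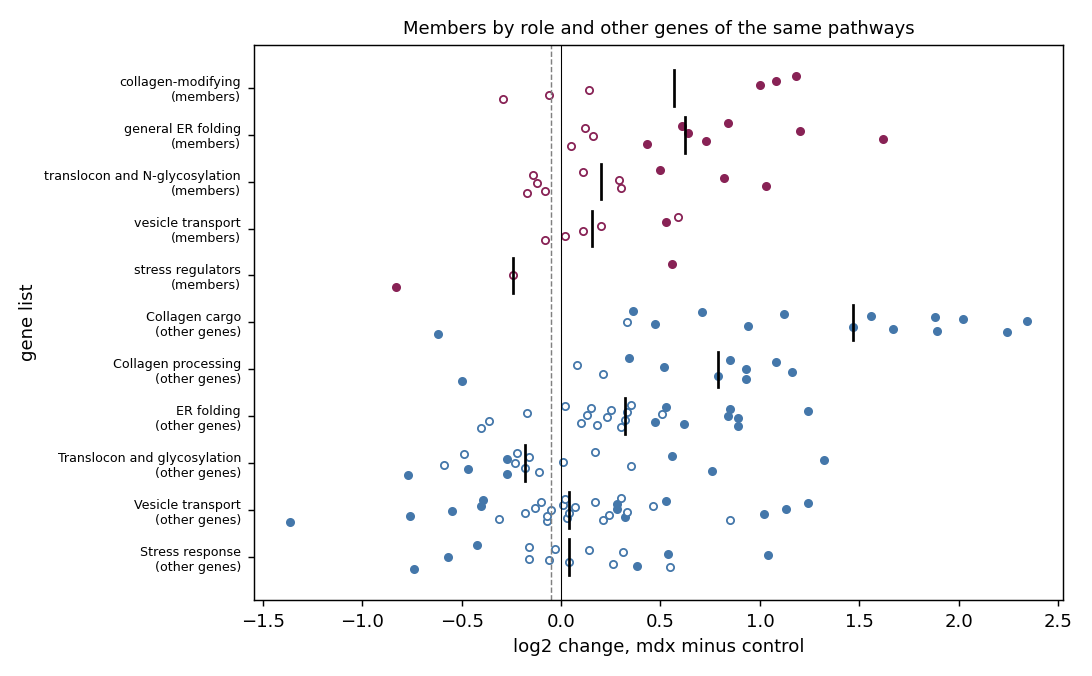
Each point is the log2 change, mdx minus control, of a tested gene, filled where it passed an adjusted p below 0.05; the upper 5 rows are the listed genes by role, the lower 6 are other genes of the same pathways, black bars are medians and the dashed line is the median of all genes at -0.05. Among the other genes the medians run from 1.47 for the collagen chains to -0.18 for targeting and glycosylation, and among the listed genes from 0.62 for general folding to -0.24 for the 3 stress regulators.

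Markers of several cell types were read in the same way, and their counts stand beside 15.9% of all genes called higher and 18.4% called lower. In a piece of muscle, fewer cells of a type and less RNA per cell cannot be told apart, and the same holds for more cells and more RNA. Of 14 macrophage markers 13 rose and 0 fell, with a summed intensity of 4973 to 9376 in control and 71730 to 96480 in mdx, and Adgre1, Cd53 and Lgals3 lay under the noise level throughout the control group but not throughout the mdx group. Of 9 fibroblast markers 6 rose and 2 fell, with sums of 53330 to 62600 and 61710 to 75880, which overlap. Dcn (31100 in control, 24500 in mdx) and Gsn (17500 and 19700) were the brightest and dominate these sums. The median log2 change of the 9 was 1.14. Of the 2 that fell, Dcn (-0.35) stood at 0.14 after quantile normalization, and Pdgfra (-0.36) still passed (-0.43, limma adjusted p = 0.0185). Scaled to the hybridization controls, Dcn passed as higher (0.29, limma adjusted p = 0.0419) and Pdgfra stood at 0.12. Both lay below the median of all genes there, 0.45. Of 8 markers of immature fibres 6 rose and 0 fell, with sums of 15430 to 23060 and 41100 to 52310. Of 9 markers of mature fibres 0 rose and 6 fell, with sums of 204600 to 361200 and 161500 to 256500. After quantile normalization Ckm still passed (-0.29, limma adjusted p = 0.044), while Myh1 (0.06), Pvalb (0.02), Tnnt3 (0), Actn3 (-0.07) and Mylpf (-0.69) did not. Under scaling to the hybridization controls none of these 6 passed, and all lay below the median of all genes there, 0.45. Of 7 endothelial markers 1 rose (14.3%) and 2 fell (28.6%), with sums of 5954 to 6833 and 4855 to 6195. So few markers do not set this list apart from all genes. Plasma and B cells, whose ER is large, had 5 tested markers of which 1 rose, Jchain (0.63), and 0 fell, with sums of 1083 to 1969 and 1448 to 1866 and Pou2af1 below the noise level on all 10 arrays. The part of these cell types in the changes of the secretory genes was not tested.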

How the data were processed

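The data were 10 arrays, 5 control and 5 mdx. The authors deposited linear intensities, 1 for each probe set, some of them below 0. Software, background correction and scaling are not given in the sources used here. With 2% of values trimmed at both ends, the array mean was 723.1 on mdx replicate 1 and between 800.7 and 800.9 on the others, and 19.7% to 23.8% of values were below 0 on an array. The scaling was kept, since deviations of the array mean were within 10%. The share of values below 0 was 22.8% to 23.8% on control arrays and 19.7% to 22.5% on mdx arrays (exact permutation p = 0.00794, two-sided). Its part in the changes of dim genes was not tested. Groups were assigned from the titles.

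Probe sets were named by the platform annotation: 10833 had 1 gene, 396 several and 1193 none. The 66 control probe sets were left out of the tests. Values below 0 were set to 0. The noise level of 156.8 is the median size of the 27483 values below 0 on the scale of a normal SD; the root mean square of those values, 373.2, was an alternative. Probe sets entered the tests if 5 or more of the 10 arrays, counted without regard to group, exceeded 134.3, the 40th percentile. Groups were compared in limma 3.58.1 (R 4.3.3; lmFit, then eBayes with a trend in the variance). Tests were two-sided and adjusted by Benjamini-Hochberg over 7612 probe sets. The script was tested on simulated data. The number of arrays limits the precision.

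Of 18 further probe sets of 14 listed genes, 11 gave the same call as the brightest, 1 missed a call it had and 6 were too dim to test. Every listed gene is accounted for. Per-array values are given for up to 4 called genes in each role with the smallest p and for genes whose probe sets disagree. Of each wider list the 3 genes with the smallest p are named, with others chosen after their values were seen, including all that fell. The genes and lists were chosen with earlier results of these data known. Alternatives covered the pseudocount, negative values, scaling, filter, variance trend, choice of probe set, a replicate block and leaving out each array; scaling to the hybridization controls and the root mean square noise were added after seeing the data.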

Additional observations from a re-analysis of the deposited data

Results flagged for a closer look

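In 3 of 76 sets of 5 arrays, that is 38 genes in each group, a single array stood apart from the other 4 by more than Dixon's test allows, where chance alone flags about 5%. Hsp90b1 was at 2076 on control replicate 1, below the other control arrays at 2953 to 3244, and without that array its change was 0.73 (limma adjusted p = 0.000115). Dad1 was at 4762 on control replicate 3, above 4456 to 4536. Ssr4 was at 107 on mdx replicate 5, against -22.52 to -4.107 on the other mdx arrays, all of them below the noise level of 156.8.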

How the results depend on the processing

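Of the 16 calls among the listed genes, 12 held under all 23 alternatives; Ssr2, Copb2, Manf and Ddit3 were the exceptions, and 4 of the 19 genes without a call never gained one. Leaving out 1 array at a time gave 12 to 16 genes called higher, against 15, and 1 called lower each time. Scaling to the hybridization controls moved the most values: 30 listed genes were called higher and 0 lower, beside 15 and 1, and 83 and 1 of the other pathway genes, beside 42 and 14, and 3507 and 124 of all probe sets, beside 1191 and 1329. The role medians became 1.12 (collagen-modifying, beside 0.57), 1.18 (general folding, beside 0.62), 0.70 (translocon and N-glycosylation, beside 0.20), 0.67 (vesicle transport, beside 0.16) and 0.38 (stress regulators, beside -0.24). P4ha2 (0.50), Srp14 (0.48), Srp9 (0.43), Dad1 (0.50), Rpn1 (0.51) and Sar1a (0.54) changed sign and passed there. Against the median of all genes under that scaling, 0.45, these genes lay at -0.02 to 0.09. By construction this scaling moves all genes of an array together.

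The translocon and N-glycosylation median was 0.11 with no filter and 0.11 with a stricter one. The stricter filter left out Ddit3, so 0 listed genes were called lower and the stress regulator median was 0.16. With the root mean square noise the collagen-modifying median was 0.49. With the replicate number as a block, 13 listed genes were called higher and 1 lower, Ssr2 (adjusted p = 0.0712) and Copb2 (0.0953) no longer passing; the numbers were not shown to pair arrays, since same-numbered arrays correlated at -0.13 to 0.05 in their deviations. Intensities near the noise level limit Calr, Hyou1 and Ssr4, whose changes could not be measured.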

Other observations

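Values of close relatives within the secretory pathway are given here side by side. They were picked after their values had been seen, and the differences between relatives were not tested. The channel gene Sec61a1 rose by 0.82 while its relative Sec61a2 went from 2050 ± 305 in control to 1420 ± 72.0 in mdx (SD, n = 5), a fall of 0.47 on the log2 scale (limma adjusted p = 0.00401). Of the GTPases of the COPII coat, Sar1a stood at -0.08 and Sar1b fell by 0.76 on the log2 scale, from 15600 ± 1570 to 9120 ± 842 (adjusted p = 4.23e-05), with -0.69 on its other probe set. Sec23a, of the same coat, fell by 0.39 on the log2 scale, although its other probe set stood at 0.23 (adjusted p = 0.367), and Sec23b was at 0.20 and did not pass. Of the 3 receptors that return proteins to the ER, Kdelr3 rose by 1.24, Kdelr2 stood at 0.59 and Kdelr1 at -0.10 (adjusted p = 0.349). Tmed3 rose by 1.13 and Tmed4 fell by 0.40 on the log2 scale. Scaled to the hybridization controls, Sec61a2, Sar1b, Sec23a and Tmed4 stood at 0.11, -0.13, 0.22 and 0.20 and did not pass. These values lay below the median of all genes under that scaling, 0.45.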
